A study of Arabidopsis thaliana with 12 samples.

Results

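The 41 genes described here are the nuclear genes of Arabidopsis thaliana for the light-harvesting antenna and the photosystems, taken as a fixed list of locus numbers out of the 27416 loci counted in every library. They comprise 6 LHCA genes for the antenna of photosystem I, 9 LHCB1, LHCB2 and LHCB3 genes for the major antenna of photosystem II, 5 LHCB4, LHCB5 and LHCB6 genes for its minor antenna, PSBS, 12 PSA genes for photosystem I subunits, 5 PSB genes for the oxygen-evolving complex and 3 PSB genes for small photosystem II subunits. All 41 loci were found in all 12 libraries. Plants of ecotype Columbia were either labelled as a psp1 mutant, with a defect in phosphoserine phosphatase, or as wild type (WT). PSP1 encodes the last enzyme of the plastid pathway that makes serine from a glycolytic intermediate, and the series compares plants deficient in that pathway with WT. Both genotypes were grown on vertical agar plates in days of 16 h light and 8 h dark, and the aerial part and the roots were each collected when the night ended. The groups were thus psp1 aerial part, WT aerial part, psp1 roots and WT roots, each with 3 libraries that the labels call independent biological replicates. The labels do not describe the psp1 allele, and the plants' age was not given in the sources used here.

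Photosystems I and II are pigment-protein complexes of the chloroplast thylakoid membrane that turn absorbed light into electron flow. Their reaction-centre proteins are mostly encoded in the plastid, whereas the chlorophyll a/b-binding antenna proteins and many peripheral subunits come from nuclear genes, are made in the cytosol and are imported. In leaves these nuclear genes are among the most strongly transcribed, and they are known to respond to light, the circadian clock and signals from the plastid. Roots hold mostly non-green plastids.

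Every library labelled psp1 was less deep than every WT library, with estimated counts of 3627193 to 5815906 in psp1 aerial part, 7302386 to 8958217 in WT aerial part, 4191768 to 5873935 in psp1 roots and 7445059 to 9590308 in WT roots. The psp1 libraries of the aerial part also differed more among themselves, with a common biological coefficient of variation of 23.1%, against 11.3% in WT aerial part. In roots these values were 18.3% for psp1 and 14.7% for WT. PSP1 itself (AT1G18640) went against the label in 1 organ. Its level was 243 to 401 CPM (counts scaled to the library total) in the 3 psp1 aerial libraries, against 50.4 to 73.8 CPM in WT aerial part, and 114 to 145 CPM in psp1 roots, against 141 to 167 CPM in WT roots. Below, psp1 therefore stands for the libraries carrying that label, and each direction drawn from it rests on the label.

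Several members are near-identical copies, so that the assignment of reads between them is uncertain. LHCB1.1 (AT1G29920), LHCB1.2 (AT1G29910) and LHCB1.3 (AT1G29930) lie next to each other on chromosome 1, at chr1:10474656-10475969 on the minus strand, chr1:10472280-10473502 on the minus strand and chr1:10477885-10479114 on the plus strand of RefSeq's TAIR10.1 assembly, each with 1 coding exon. LHCB1.1 and LHCB1.2 encode identical proteins of 267 residues, and LHCB1.3 differs from each at 1 residue. Over the 804 bases of coding sequence, LHCB1.1 differed from LHCB1.2 at 35 bases and from LHCB1.3 at 31 bases. The stretch of 75 bases (1 read length) in which the 3 genes differed at the most positions is coding bases 10 to 84, at chr1:10475809-10475883, chr1:10473163-10473237 and chr1:10478080-10478154. It is shown because reads over such positions are what separates the copies, and capitals mark the 9 positions at which they are not all alike.
LHCB1.1: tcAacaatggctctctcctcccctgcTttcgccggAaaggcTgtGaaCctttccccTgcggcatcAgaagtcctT
LHCB1.2: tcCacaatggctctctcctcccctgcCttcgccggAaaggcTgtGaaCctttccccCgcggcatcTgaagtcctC
LHCB1.3: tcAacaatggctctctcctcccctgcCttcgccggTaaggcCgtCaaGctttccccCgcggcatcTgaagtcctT

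Of the 730 stretches of 75 bases in each of these coding sequences, 129 of LHCB1.1, 42 of LHCB1.2 and 87 of LHCB1.3 were also found in another counted locus. LHCB1.4 (AT2G34430) and LHCB1.5 (AT2G34420), neighbours on chromosome 2, shared 90 such stretches, and LHCB2.1 (AT2G05100) and LHCB2.2 (AT2G05070) shared 204 of 724, or 28.2%. LHCA2 shared 24 stretches with the locus AT5G28450. The other 33 members shared none.

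The upstream sequences of 4 members that the results turn on are given as RefSeq TAIR10.1 sequence, 250 bases ending just before the annotated gene start, read towards the gene. LHCB1.1 (chr1:10475970-10476219, minus strand) and LHCB1.3 (chr1:10477635-10477884, plus strand) are neighbours whose organ contrasts were far apart, with WT log2 fold changes of -9.60 and -5.92. LHCB3 (chr5:22037915-22038164, plus strand) and PSAO (chr1:2641935-2642184, minus strand) are the members that passed the test of a genotype difference changing with the organ. Neither of these calls held in every alternative setting. Capitals mark matches, on either strand, to any of 6 motifs known from plant promoters, namely the G-box CACGTG, the I-box GATAAG, the CCA1 site AAAAATCT, the evening element AAAATATCT, the CCAAT box CCAATC and the TATA box TATAAA.
LHCB1.1: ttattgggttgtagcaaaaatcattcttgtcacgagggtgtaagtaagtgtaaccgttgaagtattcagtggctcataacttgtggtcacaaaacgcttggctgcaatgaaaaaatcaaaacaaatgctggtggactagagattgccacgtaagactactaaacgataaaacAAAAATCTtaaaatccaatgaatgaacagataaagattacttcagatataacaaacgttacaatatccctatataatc
LHCB1.3: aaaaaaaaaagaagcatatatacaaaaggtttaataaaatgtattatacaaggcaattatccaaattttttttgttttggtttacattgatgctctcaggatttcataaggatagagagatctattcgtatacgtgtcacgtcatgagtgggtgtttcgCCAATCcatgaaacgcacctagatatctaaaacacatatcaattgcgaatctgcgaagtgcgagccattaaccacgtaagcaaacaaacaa
LHCB3: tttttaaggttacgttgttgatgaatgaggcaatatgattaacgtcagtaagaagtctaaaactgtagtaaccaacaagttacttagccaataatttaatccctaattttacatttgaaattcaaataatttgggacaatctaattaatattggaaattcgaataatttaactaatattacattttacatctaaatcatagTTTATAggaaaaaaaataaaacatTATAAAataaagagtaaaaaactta
PSAO: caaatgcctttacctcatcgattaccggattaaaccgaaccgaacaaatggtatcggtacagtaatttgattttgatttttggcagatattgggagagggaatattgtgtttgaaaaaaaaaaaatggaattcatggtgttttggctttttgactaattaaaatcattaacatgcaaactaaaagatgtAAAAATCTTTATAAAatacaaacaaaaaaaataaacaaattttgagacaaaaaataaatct

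In LHCB1.1 the capitals are a CCA1 site 78 to 71 bases before the gene start, and in LHCB1.3 a CCAAT box 91 to 86 bases before it. LHCB3 held a TATA box at 25 to 20 bases, and another on the opposite strand at 49 to 44 bases. In PSAO a CCA1 site at 61 to 54 bases overlapped by 1 base a TATA box on the opposite strand at 54 to 49 bases, which in turn overlapped one on the given strand at 52 to 47 bases. Over all 41 members, the CCAAT box was found upstream of 11 (26.8%, against 10.2% of the 27443 nuclear genes with such a window) and the G-box upstream of 8 (19.5%, against 6.49%). The I-box was found in 9 (22.0%, against 12.3%), the CCA1 site in 5 (12.2%, against 6.69%), the TATA box in 18 (43.9%, against 47.3%) and the evening element in 1 (2.44%, against 2.36%). These are letter matches only, and each says nothing of whether a factor binds there.

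In roots all 41 genes were listed at a small part of their level in the aerial part. Together they made up 0.151% ± 0.0198 of all TPM (transcript abundance scaled by length and library total, used throughout for levels) in psp1 roots, against 9.16% ± 1.19 in psp1 aerial part (SD, n = 3 each). In WT they made up 0.229% ± 0.00931 in roots, against 11.3% ± 0.623 in the aerial part (SD, n = 3 each). All 41 were called lower in roots than in the aerial part in psp1 and likewise in WT by edgeR's exact test at a Benjamini-Hochberg adjusted p under 0.01. The background was 24.5% of the 17344 genes tested in psp1 and 30.8% of the 18202 tested in WT. The median log2 fold change of the members, roots over aerial part, was -6.75 in psp1 and -6.37 in WT, while that of all genes was 0.04 and 0.03. The genotype comparisons below use the same 12 libraries. In bulk samples such as these, fewer cells of a green type and less RNA per cell cannot be told apart.

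**Figure D1:**
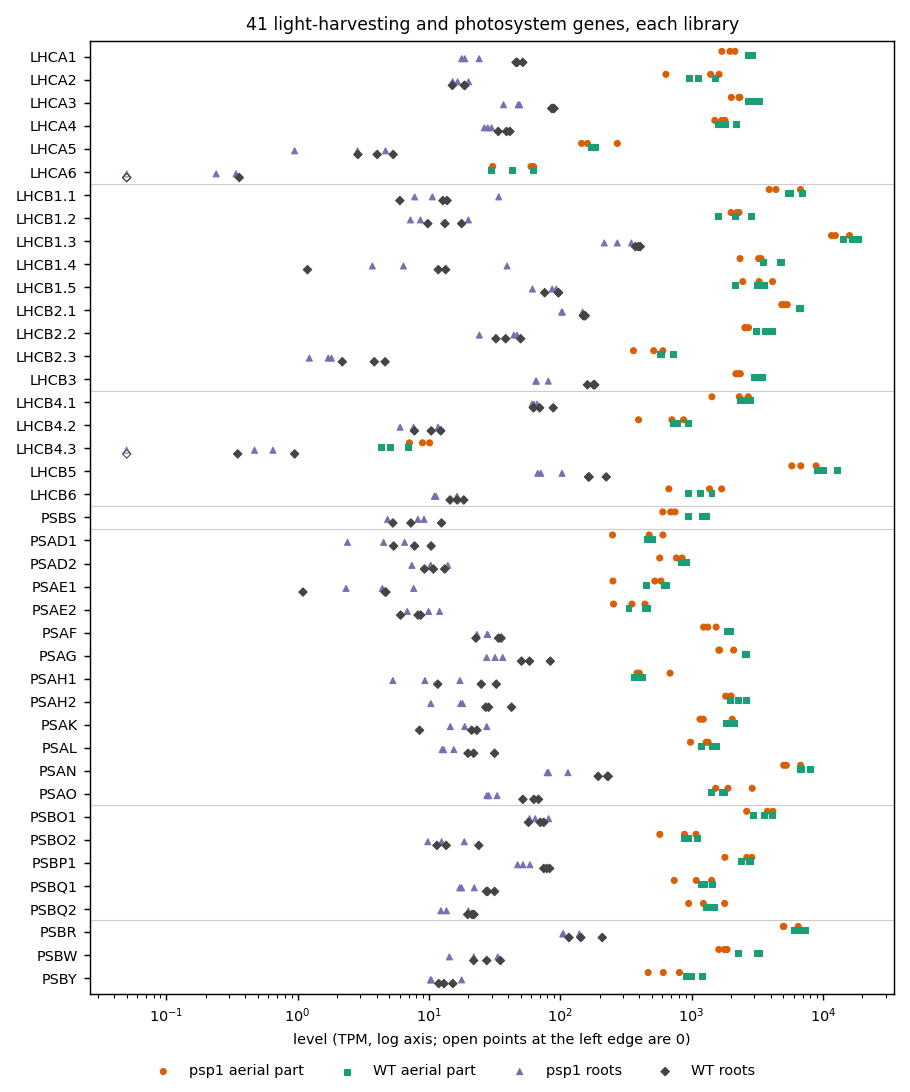
Level of each of the 41 genes in every library (TPM, log axis), grouped by role, with 3 points per group for psp1 aerial part, WT aerial part, psp1 roots and WT roots. Root points lie far left of aerial points for every gene, with the smallest gap for LHCB4.3 (8.73 TPM in psp1 aerial part and 5.43 TPM in WT aerial part), and LHCA6 and LHCB4.3 each have root libraries at 0.

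The widest organ contrast in WT was that of LHCB1.1, a gene of the major antenna. It had 6.01, 12.8 and 13.8 TPM in WT roots, against 5619, 6893 and 5409 TPM in WT aerial part, a log2 fold change of -9.60 ± 0.38 (SE). In psp1 it had 7.79, 10.6 and 34.0 TPM in roots, against 3902, 4390 and 6756 TPM in the aerial part (-8.85 ± 0.68). Near the other end of the WT range lay PSAH1 at -4.59 ± 0.44, LHCB3 at -4.72 ± 0.09 and PSAO at -5.24 ± 0.16. LHCB4.3 (AT2G40100), a rarely expressed form of the minor antenna protein CP29, had the smallest fitted value, -4.06 ± 0.58 in WT, but from 9 counts over the 3 WT root libraries. Its root level per counted read was 3.91% of the aerial level in psp1 (95% interval 1.04 to 10.4, counting error only) and 8.21% in WT (3.65 to 16.2).

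LHCA6 (AT1G19150), an antenna protein that takes part in joining photosystem I to the chloroplast NADH dehydrogenase-like complex, was all but absent from the root counts. It had 2 counts over the 3 psp1 root libraries, against 479 in psp1 aerial part, and 2 over the 3 WT root libraries, against 841 in WT aerial part. The root level was 0.368% of the aerial one in psp1 (95% interval 0.0444 to 1.34) and 0.223% in WT (0.0270 to 0.810, both counting error only).

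**Figure D2:**
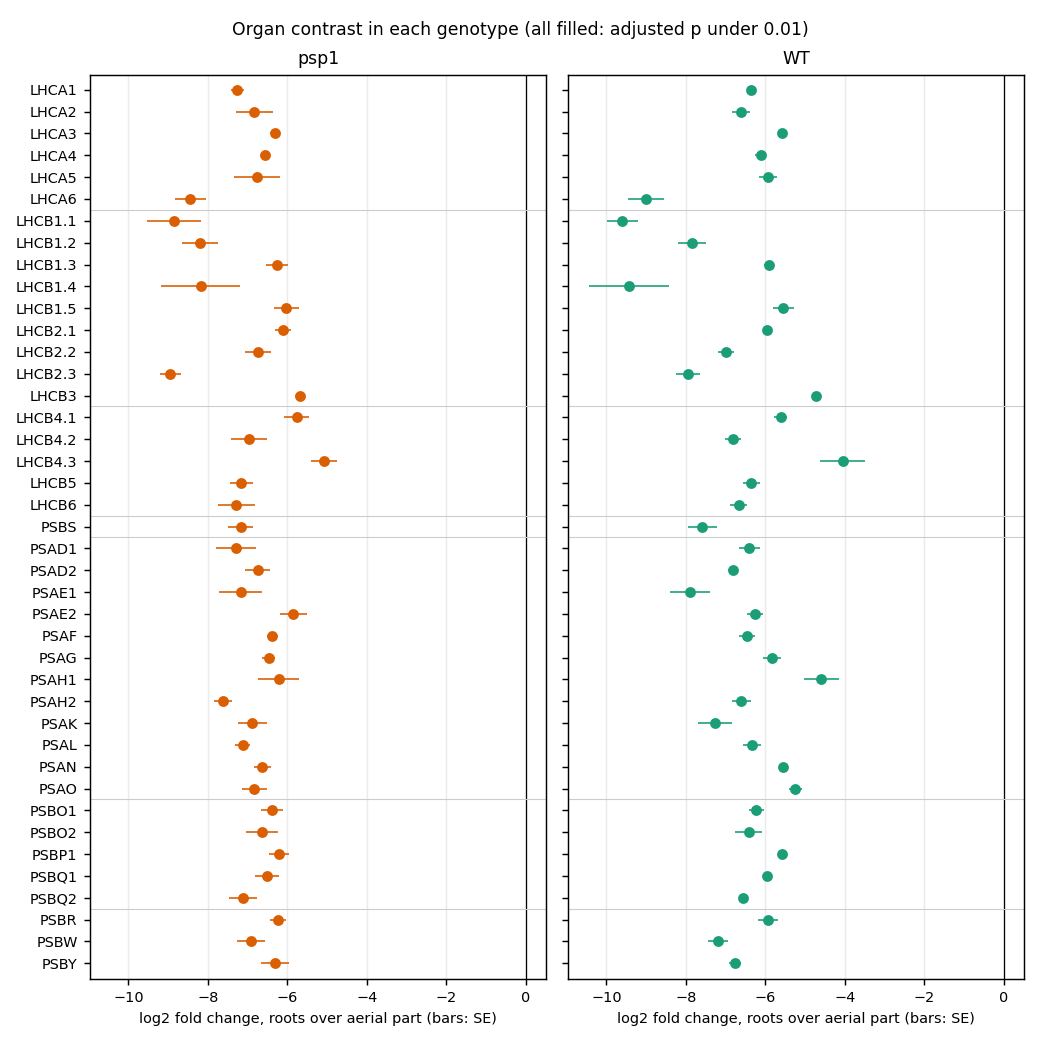
Log2 fold change of roots over aerial part for each gene in psp1 (left) and in WT (right), with bars for the SE. Every point lies below 0, from -8.95 to -5.07 in psp1 and from -9.60 to -4.06 in WT.

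The LHCB1 copies did not keep the same proportions in the organs. LHCB1.3 provided 69.4% ± 3.05 of the LHCB1 TPM in psp1 roots, against 49.9% ± 1.47 in psp1 aerial part, and 76.1% ± 2.15 in WT roots, against 51.9% ± 1.3 in WT aerial part (SD, n = 3 each). LHCB1.1 provided 3.99% ± 2.24 in psp1 roots, against 18.5% ± 2.07 in psp1 aerial part, and 2.12% ± 0.874 in WT roots, against 18.8% ± 1.37 in WT aerial part. For both copies the root and aerial libraries did not overlap in either genotype. With 3 libraries a group an exact permutation test cannot give a p below 0.10, so the shares are given as values. LHCB1.5 also had a larger share in roots, with 20.3% ± 3.88 against 12.2% ± 1.1 in psp1 and 17.4% ± 1.53 against 9.13% ± 1.07 in WT. LHCB2.1 held 74.8% ± 5.29 of the LHCB2 TPM in psp1 roots, against 62.1% in psp1 aerial part (61.7 to 62.5% over the 3 libraries), and 77.8% ± 4.03 in WT roots, against 61.3% ± 2.63 in WT aerial part. Because reads of the LHCB1 copies can be moved between them by the counting, the summed family was tested too. The log2 fold change of the LHCB1 total, roots over aerial part, was -6.72 in psp1 and -6.47 in WT.

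**Figure D3:**
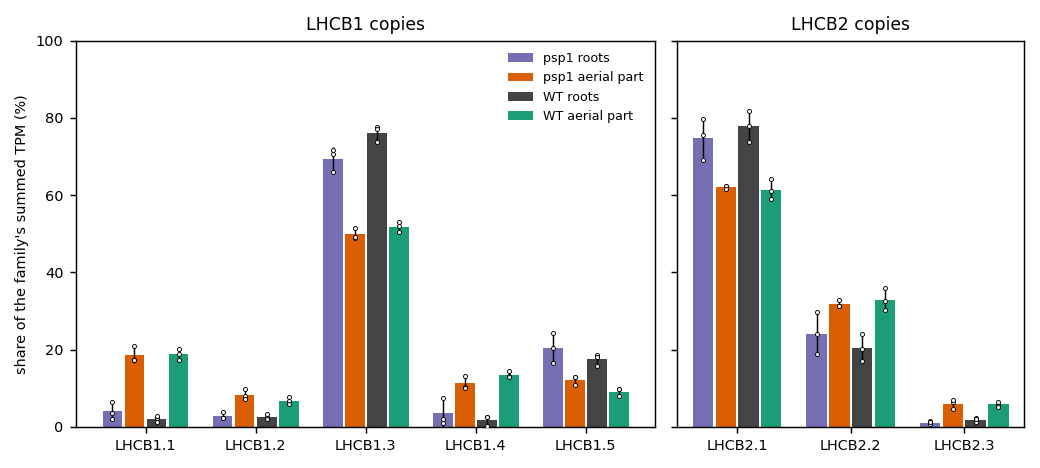
Share of each copy in the summed TPM of LHCB1 (left) and LHCB2 (right), with bars for group means, error bars for the SD and points for the 3 libraries of psp1 roots, psp1 aerial part, WT roots and WT aerial part. LHCB1.3 holds 69.4% and 76.1% of LHCB1 in psp1 and WT roots, against 49.9% and 51.9% in psp1 and WT aerial parts.

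In both organs and both genotypes LHCB1.3 was highest, at 13344 ± 2301 TPM in psp1 aerial part, 16520 ± 2095 TPM in WT aerial part, 279 ± 66.3 TPM in psp1 roots and 392 ± 16.4 TPM in WT roots. LHCB5, which encodes CP26, came next in the aerial part, with 7158 TPM in psp1 and 10591 TPM in WT. LHCB2.1 came next in psp1 roots (118 TPM) and PSAN in WT roots (219 TPM). With the 41 genes ordered by mean, the ranges of neighbours overlapped in 37 of 40 places in psp1 aerial part, 33 in WT aerial part, 37 in psp1 roots and 34 in WT roots, so most adjacent ranks do not differ beyond the spread. The major antenna genes supplied 40.7% ± 2.21 of the members' TPM in psp1 aerial part and 40.6% ± 1.94 in WT aerial part. In roots they supplied 41.7% ± 3.58 in psp1 and 38.7% ± 1.68 in WT. PSBS supplied 0.487% ± 0.122 in psp1 roots and 0.748% ± 0.0635 in psp1 aerial part, and 0.361% ± 0.146 in WT roots and 0.999% ± 0.116 in WT aerial part.

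In roots, 14 of the 38 members tested were lower in the libraries labelled psp1 than in WT, and 0 were higher. Of all 17793 genes tested in roots, 9.1% were called lower and 8.72% higher. The median log2 fold change of the tested members was -0.59, against 0.01 for all genes. Of the members, 35 of the 38 were negative, as were 8742 of all 17793 genes. An unadjusted p under 0.05 was found for 21 of the 38 and for 6361 of all 17793. LHCA6, LHCB4.3 and PSAE1 had too few root counts to be tested. The quasi-likelihood test of edgeR called 9 of the 14, against a background of 6.46%, and lost LHCA4, LHCB2.1, PSAH2, PSAL and PSBQ1. DESeq2 called 12 and lost LHCA4 and PSBQ1. With every root library thinned to the same total, 13 of 37 tested members were called lower. In 18 of the 38 members all 3 psp1 root libraries lay below all 3 WT root libraries in CPM, as 19.7% of all tested genes did. LHCA1, LHCA3, LHCB3, LHCB5, PSAN and PSAO stayed called in each of 15 alternative settings, which include leaving out each library.

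Among the photosystem I antenna genes, LHCA1, LHCA3 and LHCA4 fell in psp1 roots. LHCA1 (AT3G54890) had 17.8, 24.1 and 18.8 TPM in psp1 roots, against 51.9, 47.0 and 46.1 TPM in WT roots. No library overlapped, and the level was 2.77-fold lower (log2 -1.47 ± 0.12, edgeR exact test, adjusted p = 1.15e-10). LHCA3 (AT1G61520) had 49.1, 47.8 and 37.0 TPM in psp1 roots, against 89.7, 86.1 and 88.1 TPM in WT roots. It was the most abundant LHCA gene in the aerial part of both genotypes, and its root difference was 2.27-fold (log2 -1.18 ± 0.12, edgeR exact test, adjusted p = 3.56e-11). LHCA4 (AT3G47470) had 26.4, 30.0 and 28.1 TPM in psp1 roots, against 33.7, 41.4 and 39.0 TPM in WT roots. Its smaller difference of -0.64 ± 0.09 passed by a narrow margin (edgeR exact test, adjusted p = 0.0073) and was lost in 11 of 15 alternatives. These were the quasi-likelihood test with and without a replicate block, DESeq2, library totals, no filter, equal depth, limma, and leaving out psp1 root replicate 1 or 2 or WT root replicate 2 or 3. LHCA2 was at -0.23 ± 0.17 and LHCA5, the other antenna protein of the NDH link, at -0.74 ± 0.61, and neither passed.

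Of the major photosystem II antenna genes, LHCB3, LHCB1.3 and LHCB2.1 fell in psp1 roots. LHCB3 (AT5G54270, chr5:22038165-22039568, plus strand, 3 coding exons), a trimer protein that lacks the phosphorylation site of LHCB1 and LHCB2, had 65.8, 65.2 and 81.1 TPM in psp1 roots, against 179, 161 and 183 TPM in WT roots. This was the largest fall among the members tested in roots, -1.51 ± 0.14 on the log2 scale (edgeR exact test, adjusted p = 1.18e-19), with no overlap. LHCB1.3 had 272, 217 and 348 TPM in psp1 roots, against 407, 394 and 374 TPM in WT roots (-0.69 ± 0.23, edgeR exact test, adjusted p = 0.000878). That call was lost with limma and without psp1 root replicate 1 or 2 or WT root replicate 1. LHCB2.1 had 148, 103 and 104 TPM in psp1 roots, against 155, 153 and 150 TPM in WT roots, with psp1 replicate 1 close to the WT libraries (-0.57 ± 0.19, edgeR exact test, adjusted p = 0.00437). Without psp1 root replicate 2 or 3, or without any 1 of the 3 WT root libraries, it was not called, nor was it with the quasi-likelihood test, library totals or limma. The LHCB1 total was at -0.54 ± 0.26 and the LHCB2 total at -0.51 ± 0.20, and neither passed (edgeR exact test, adjusted p = 0.0213 and 0.0126).

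The remaining LHCB1 and LHCB2 copies did not pass in roots. LHCB2.3 (AT3G27690), the least abundant major antenna gene, had 1.23, 1.81 and 1.71 TPM in psp1 roots, against 2.19, 4.64 and 3.84 TPM in WT roots, a difference of -1.38 ± 0.31 (edgeR exact test, adjusted p = 0.0455). LHCB1.1 and LHCB1.4 had positive values, 0.48 ± 0.74 and 0.71 ± 1.41. In both, psp1 root replicate 3 was far above the other psp1 root libraries, at 34.0 TPM for LHCB1.1 and 39.4 TPM for LHCB1.4. LHCB1.2, LHCB1.5 and LHCB2.2 were at -0.39, -0.36 and -0.26.

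LHCB5 (AT4G10340) was the minor antenna gene that fell in psp1 roots. It had 67.4, 71.1 and 103 TPM in psp1 roots, against 164, 166 and 224 TPM in WT roots, a difference of -1.40 ± 0.26 with no overlap (edgeR exact test, adjusted p = 7.11e-11). LHCB4.1, LHCB4.2 and LHCB6 were at -0.41, -0.48 and -0.56 and did not pass. PSBS (AT1G44575), which senses lumen acidity and triggers the release of excess energy as heat, had 9.18, 4.85 and 8.25 TPM in psp1 roots, against 5.32, 12.5 and 7.29 TPM in WT roots, and the groups overlapped.

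Photosystem I subunit genes gave 5 of the 14 calls in roots. PSAN (AT5G64040), a lumenal subunit on the plastocyanin side, had 81.4, 79.6 and 114 TPM in psp1 roots, against 195, 229 and 232 TPM in WT roots (-1.46 ± 0.20, edgeR exact test, adjusted p = 1.06e-13). PSAO (AT1G08380), a small subunit at the docking side for mobile antenna, had 28.5, 27.6 and 33.1 TPM in psp1 roots, against 52.0, 68.3 and 63.0 TPM in WT roots (-1.25 ± 0.15, edgeR exact test, adjusted p = 1.32e-05). Neither gene had overlapping root libraries. PSAG (AT1G55670), a subunit at the antenna side, had 31.9, 36.5 and 27.5 TPM in psp1 roots, against 58.4, 50.7 and 84.1 TPM in WT roots (-1.22 ± 0.24, edgeR exact test, adjusted p = 4.14e-05). PSAH2 (AT1G52230) and PSAL (AT4G12800) belong, with PSAO, to the docking region. PSAH2 had 18.0, 17.5 and 10.3 TPM in psp1 roots, against 28.5, 27.1 and 42.6 TPM in WT roots (-1.29 ± 0.31, edgeR exact test, adjusted p = 0.00143). PSAL had 15.5, 12.6 and 12.9 TPM in psp1 roots, against 21.9, 31.6 and 19.9 TPM in WT roots (-1.03 ± 0.21, edgeR exact test, adjusted p = 0.00222). The groups stayed apart in each of these genes. PSAH2 lost its call without WT root replicate 3, and PSAL without psp1 root replicate 2 or WT root replicate 2. Both also lost it with the quasi-likelihood test and with limma. PSAG lost its call with limma only.

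The other photosystem I genes varied in roots. PSAH1 (AT3G16140), the second gene for the same subunit as PSAH2 and the least abundant PSA gene in WT aerial part, had 9.33, 5.32 and 17.2 TPM in psp1 roots, against 32.6, 11.7 and 25.1 TPM in WT roots. The groups overlapped and the value of -1.33 ± 0.63 did not pass (edgeR exact test, adjusted p = 0.0335), but the sum of PSAH1 and PSAH2 fell by 1.31 ± 0.28 (adjusted p = 0.000108). The ferredoxin-side genes PSAD1, PSAD2 and PSAE2 were at -1.03, -0.25 and 0.12, PSAF of the plastocyanin dock at -0.44 and PSAK at -0.02, and none passed. PSAE1 had 7.66, 2.34 and 4.42 TPM in psp1 roots, against 4.71, 4.64 and 1.1 TPM in WT roots.

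In the oxygen-evolving complex, which caps the water-splitting site of photosystem II, PSBP1 and PSBQ1 fell in psp1 roots and the PSBO genes did not pass. PSBP1 (AT1G06680) had 47.4, 58.9 and 52.1 TPM in psp1 roots, against 75.0, 83.0 and 78.9 TPM in WT roots (-0.79 ± 0.08, edgeR exact test, adjusted p = 1.18e-05). PSBQ1 (AT4G21280) had 17.2, 22.1 and 17.7 TPM in psp1 roots, against 27.5, 28.0 and 31.6 TPM in WT roots (-0.82 ± 0.11, edgeR exact test, adjusted p = 0.0034). Groups did not overlap in either gene, and PSBQ1 lost its call without psp1 root replicate 1 or any 1 WT root library, and with the quasi-likelihood test, DESeq2, library totals and limma. PSBP1 lost its call with limma only. The PSBQ total fell by 0.76 ± 0.11 (edgeR exact test, adjusted p = 0.00101), a call lost without psp1 root replicate 1 or WT root replicate 3. PSBO1 (AT5G66570) had 58.3, 64.5 and 81.6 TPM in psp1 roots, against 70.6, 75.0 and 57.3 TPM in WT roots, and PSBO2 (AT3G50820) had 12.5, 9.81 and 18.6 TPM in psp1 roots, against 24.0, 11.5 and 13.5 TPM in WT roots. Both overlapped. PSBQ2 was at -0.67 ± 0.22.

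The 3 small photosystem II subunit genes did not pass in roots. PSBR (AT1G79040), a lumenal subunit that helps hold PSBP, had 140.0, 105 and 106 TPM in psp1 roots, against 144, 209 and 117 TPM in WT roots. PSBW (AT2G30570) had 22.0, 14.3 and 33.5 TPM in psp1 roots, against 27.6, 35.0 and 21.9 TPM in WT roots. PSBY (AT1G67740) had 10.4, 10.3 and 17.8 TPM in psp1 roots, against 13.0, 11.9 and 15.2 TPM in WT roots. Their log2 values were -0.62, -0.48 and -0.28, and libraries of the groups overlapped in each.

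**Figure D4:**
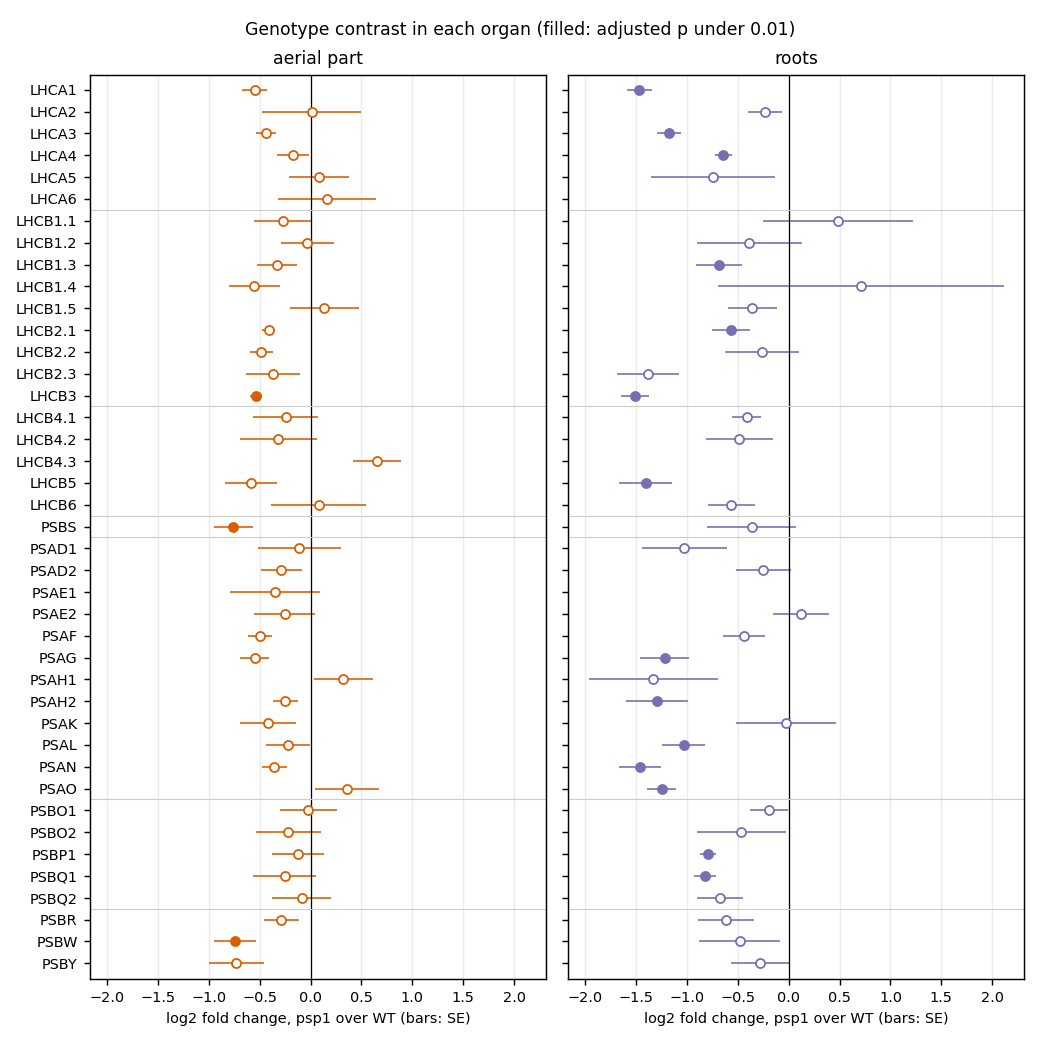
Log2 fold change of psp1 over WT for each gene in the aerial part (left) and in roots (right), with bars for the SE and filled points for an adjusted p under 0.01. In roots 14 filled points lie between -1.51 and -0.57, and in the aerial part 3 lie between -0.76 and -0.54; LHCA6, LHCB4.3 and PSAE1 have no root point.

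In the aerial part, 3 of the 41 members were lower in the libraries labelled psp1 than in WT and 0 were higher: PSBS, PSBW and LHCB3. Of all 15928 genes tested there, 0.904% were called lower and 1.53% higher. The members' median was -0.27, against 0.01 for all genes, and 33 of 41 were negative, as were 7799 of all 15928 genes. In 12 members all psp1 libraries lay below all WT libraries in CPM, as in 11.3% of all tested genes. At an unadjusted p under 0.05 the exact test gave 13 of the 41 members and 2647 of all 15928 genes. The quasi-likelihood test called 0 of the 41, against 0.0188% of all genes (3 genes), and DESeq2 called 4. Without WT aerial replicate 1 or WT aerial replicate 2 the count was 0, and without psp1 aerial replicate 3 it was 6. Replicate 1 of psp1 was the lowest of the 6 aerial libraries for 29 of the 41 members. Without it 2 were called and the median moved to -0.09.

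PSBS had 604, 749 and 693 TPM in psp1 aerial part, against 1278, 1195 and 933 TPM in WT aerial part (-0.76 ± 0.20, edgeR exact test, adjusted p = 0.00225). PSBW, a small subunit that stabilises photosystem II with its antenna, had 1613, 1780 and 1863 TPM in psp1 aerial part, against 3248, 3159 and 2252 TPM in WT aerial part (-0.75 ± 0.21, edgeR exact test, adjusted p = 0.00365). LHCB3 had 2352, 2177 and 2260 TPM in psp1 aerial part, against 3426, 3001 and 3263 TPM in WT aerial part (-0.54 ± 0.06, edgeR exact test, adjusted p = 0.00876). The groups did not overlap in any of the 3. All 3 calls were lost without WT aerial replicate 1 or WT aerial replicate 2. LHCB3 was also lost without WT aerial replicate 3 or psp1 aerial replicate 2 or 3, and with library totals, no filter or equal depth. PSBW was also lost without psp1 aerial replicate 1 or 2.

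**Figure D5:**
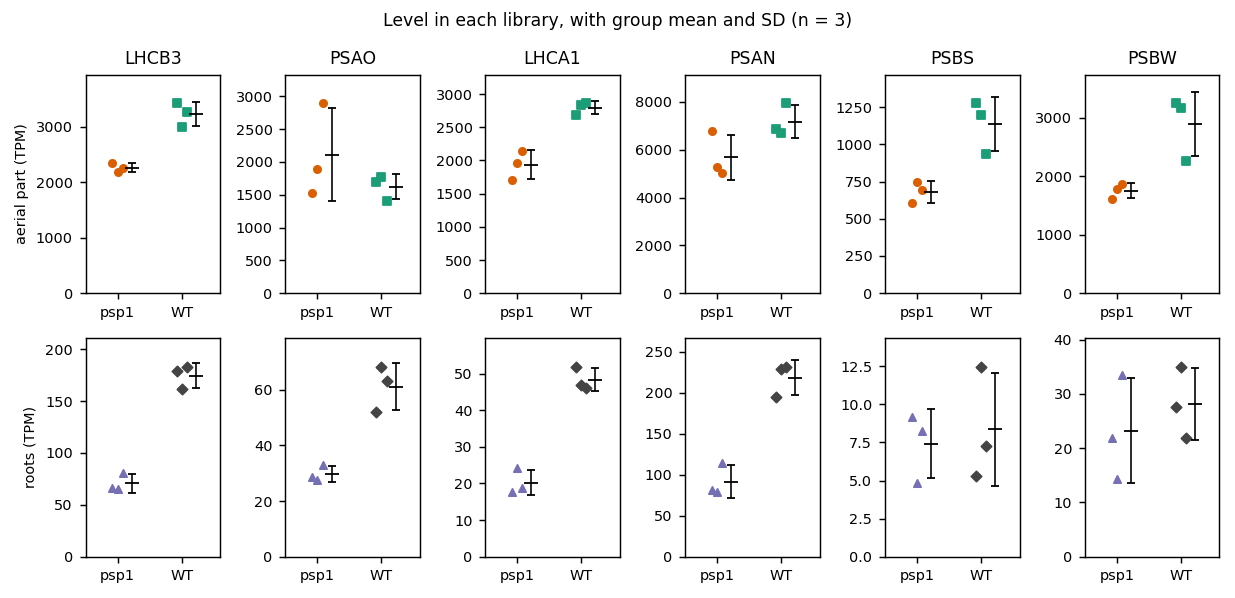
Level of LHCB3, PSAO, LHCA1, PSAN, PSBS and PSBW in each library (TPM) of the aerial part (top) and roots (bottom), psp1 left of WT, with the group mean and SD (n = 3). LHCB3 is lower in psp1 in each organ, PSAO averages 2107 TPM in psp1 and 1625 TPM in WT aerial part but 29.7 TPM in psp1 and 61.1 TPM in WT roots, and the root values of PSBS and PSBW overlap.

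No other member passed in the aerial part, also where it had fallen in roots. LHCA1 had 1703, 1960 and 2140 TPM in psp1 aerial part, against 2684, 2838 and 2865 TPM in WT aerial part, with no overlap (-0.55 ± 0.12, edgeR exact test, adjusted p = 0.0175). LHCA3 had 2337, 2009 and 2297 TPM in psp1 aerial part, against 2685, 3270 and 2909 TPM in WT aerial part (-0.44 ± 0.10). LHCA4 (1503, 1796 and 1699 TPM in psp1 aerial part, against 1599, 1788 and 2197 TPM in WT aerial part) and LHCA6 (30.6, 59.9 and 62.6 TPM in psp1 aerial part, against 42.6, 62.4 and 29.7 TPM in WT aerial part) overlapped between genotypes. LHCB1.3 had 11631, 12442 and 15959 TPM in psp1 aerial part, against 16797, 18464 and 14301 TPM in WT aerial part (-0.33 ± 0.20). LHCB2.1 had 4865, 5059 and 5352 TPM in psp1 aerial part, against 6585, 6749 and 6709 TPM in WT aerial part, which were apart but did not pass (-0.41 ± 0.07, edgeR exact test, adjusted p = 0.0781). LHCB2.3 had 361, 515 and 605 TPM in psp1 aerial part, against 580.1, 724 and 587 TPM in WT aerial part.

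In the minor antenna, LHCB5 had 5804, 8877 and 6792 TPM in psp1 aerial part, against 12708, 9039 and 10027 TPM in WT aerial part, with no overlap (-0.58 ± 0.25, edgeR exact test, adjusted p = 0.0883). LHCB4.3 had 8.94, 7.11 and 10.1 TPM in psp1 aerial part, against 4.32, 6.94 and 5.02 TPM in WT aerial part. It was the 1 member whose psp1 aerial libraries all lay above the WT ones, and its value of 0.65 ± 0.23 did not pass (edgeR exact test, adjusted p = 0.355). PSAN had 6767, 5271 and 5036 TPM in psp1 aerial part, against 6850, 6697 and 7952 TPM in WT aerial part. PSAO was higher on average, with 1527, 1895 and 2898 TPM in psp1 aerial part, against 1697, 1774 and 1403 TPM in WT aerial part, and did not pass (0.35 ± 0.31). PSAG had 1633, 2091 and 1615 TPM in psp1 aerial part, against 2541, 2573 and 2593 TPM in WT aerial part, with no overlap (-0.55 ± 0.14, edgeR exact test, adjusted p = 0.0231).

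PSAH2 (1992, 1998 and 1818 TPM in psp1 aerial part, against 2576, 1964 and 2248 TPM in WT aerial part), PSAL (982, 1292 and 1337 TPM in psp1 aerial part, against 1531, 1442 and 1175 TPM in WT aerial part) and PSAH1 (384, 400.2 and 686 TPM in psp1 aerial part, against 418, 377 and 365 TPM in WT aerial part) overlapped between genotypes in the aerial part. So did the oxygen-evolving genes PSBO1 (2630, 3778 and 4164 TPM in psp1 aerial part, against 3565, 4117 and 2913 TPM in WT aerial part), PSBO2 (573, 884 and 1081 TPM in psp1 aerial part, against 943, 1103 and 873 TPM in WT aerial part), PSBP1 (1794, 2636 and 2877 TPM in psp1 aerial part, against 2736, 2774 and 2368 TPM in WT aerial part) and PSBQ1 (738, 1085 and 1422 TPM in psp1 aerial part, against 1242, 1170 and 1425 TPM in WT aerial part). The median of the oxygen-evolving group in the aerial part was -0.13. PSBR had 5005, 6484 and 5038 TPM in psp1 aerial part, against 6603, 7270 and 6011 TPM in WT aerial part. PSBY had 467, 609 and 809 TPM in psp1 aerial part, against 982, 909 and 1200 TPM in WT aerial part, with no overlap, and missed the threshold (-0.73 ± 0.27, edgeR exact test, adjusted p = 0.0201). The members not named one by one ranged in the aerial part from -0.55 for LHCB1.4 to 0.14 for LHCB1.5. Of these, PSAF (-0.50 ± 0.12) and LHCB2.2 (-0.48 ± 0.11) had no overlap in CPM. Both missed the threshold (edgeR exact test, adjusted p = 0.034 and 0.0433).

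A test of the difference itself, (psp1 over WT in roots) minus (psp1 over WT in the aerial part) over all 12 libraries, passed for 2 of the 41 members, LHCB3 and PSAO, and both were negative. Of all 18759 genes tested, 0.864% passed with a negative value. LHCB3 was at -0.88 ± 0.15 (edgeR quasi-likelihood test, adjusted p = 0.00835), lower in psp1 in each organ and more so in roots. PSAO was at -1.5 ± 0.35 (edgeR quasi-likelihood test, adjusted p = 0.00752), with opposite signs in the organs. PSAN was at -1.01 ± 0.24 and missed the threshold (edgeR quasi-likelihood test, adjusted p = 0.0123). The lowest value among the members, -1.56, was that of another PSA gene, which did not pass. The median over the members was -0.29, against 0.08 for all genes. With libraries thinned to equal totals neither gene passed, and with a replicate block LHCB3 did not. Neither passed without psp1 root replicate 1 or 2, without WT root replicate 3 or without any 1 WT aerial library, and PSAO alone failed without WT root replicate 2 and LHCB3 alone without any 1 psp1 aerial library. For the other 39 members no difference between organs was shown, and a missed threshold does not show that they acted alike.

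Other genes of the same pathway were read from lists that are no part of the 41. In psp1 roots 8 of 14 tested chlorophyll synthesis genes fell and 0 rose, with a median of -0.81. Over all genes tested in roots, 9.1% were called lower and 8.72% higher. CHLP (AT1G74470), the reductase that makes the phytyl tail, had 91.9, 70.1 and 81.0 TPM in psp1 roots, against 173, 155 and 153 TPM in WT roots (-1.19 ± 0.15, edgeR exact test, adjusted p = 2.7e-13). CHLM (AT4G25080), a methyltransferase of magnesium protoporphyrin, had 107, 96.8 and 77.3 TPM in psp1 roots, against 225, 199 and 158 TPM in WT roots (-1.25 ± 0.20, edgeR exact test, adjusted p = 1.01e-11). In the aerial part 0 of 15 tested passed by the edgeR exact test, and 3 had an unadjusted p under 0.05. Among all 15928 genes tested there, 0.904% were called lower and 1.53% higher, and 2647 had an unadjusted p under 0.05.

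Of 12 electron transport and ATP synthase genes, 3 fell in psp1 roots and 0 rose. Over all genes the shares were 9.1% lower and 8.72% higher. ATPC1 (AT4G04640), the gamma subunit of the ATP synthase, had 17.1, 14.8 and 7.58 TPM in psp1 roots, against 34.5, 38.0 and 46.4 TPM in WT roots (-1.79 ± 0.36, edgeR exact test, adjusted p = 4.08e-11). PETC (AT4G03280), the Rieske protein of the cytochrome b6f complex, was at -0.98 ± 0.21 in roots (edgeR exact test, adjusted p = 3.68e-06). The PETC call was lost with limma only. Of 6 other photosystem proteins tested in roots 0 passed by the edgeR exact test. An unadjusted p under 0.05 was found for 0 of the 6, and for 6361 of all 17793 genes. In the aerial part 1 of 8 fell, against 0.904% of all genes. This was PSBTN (AT3G21055), a small photosystem II subunit, with 987, 746 and 744 TPM in psp1 aerial part, against 1358, 1687 and 1651 TPM in WT aerial part (-0.95 ± 0.14, edgeR exact test, adjusted p = 2.55e-06). It was not called with the quasi-likelihood test or with limma.

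Of the 4 antenna insertion genes, CPSRP43 (AT2G47450), which escorts antenna proteins through the stroma, changed in both organs and with opposite signs. It had 911, 934 and 723 TPM in psp1 aerial part, against 580.3, 572 and 492 TPM in WT aerial part (0.62 ± 0.15, edgeR exact test, adjusted p = 0.00784). In roots it had 21.9, 14.2 and 19.0 TPM in psp1, against 34.3, 39.5 and 33.0 TPM in WT (-1.15 ± 0.22, edgeR exact test, adjusted p = 5.84e-07). The aerial rise was lost with the quasi-likelihood test, limma, no filter or equal depth, without any 1 WT aerial library and without psp1 aerial replicate 1 or 2. In roots 1 of the 4 fell and 0 rose, with a median of -0.21 and 3 negative values. CPFTSY (AT2G45770) went the other way there and was not called. It had 36.2, 36.8 and 26.1 TPM in psp1 roots, against 22.4, 16.7 and 15.5 TPM in WT roots. Of the LHC-like proteins, 1 of 2 tested fell in psp1 roots, LIL3:2 (AT5G47110, -0.72 ± 0.14, edgeR exact test, adjusted p = 0.00222), and was not called without psp1 root replicate 1 or 2 or WT root replicate 2 or 3, with a replicate block, with library totals or with limma. In the aerial part 0 of 4 LHC-like genes passed by the edgeR exact test, and 1 had an unadjusted p under 0.05. Over all genes, 9.1% were called lower and 8.72% higher in roots, and 0.904% and 1.53% in the aerial part. Among all 15928 genes tested in the aerial part, 2647 had an unadjusted p under 0.05.

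Among 11 regulators, 2 rose and 1 fell in psp1 aerial part, against 1.53% and 0.904% of all genes. HY5 (AT5G11260), a transcription factor of light signalling, had 148, 148 and 155 TPM in psp1 aerial part, against 83.1, 90.5 and 81.6 TPM in WT aerial part (0.79 ± 0.07, edgeR exact test, adjusted p = 0.000292). STN8 (AT5G01920), the kinase of photosystem II core proteins, fell in both organs, at -0.75 ± 0.12 in the aerial part and -1.08 ± 0.19 in roots (edgeR exact test, adjusted p = 0.000353 and 6.92e-06). HY5 and the aerial value of STN8 lost their calls with the quasi-likelihood test, with limma and without WT aerial replicate 1 or 3. The root value of STN8 lost its call with limma only. In roots 1 of 10 tested regulators passed, STN8, a share near the 9.1% of all genes called lower there.

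The summed level of 10 leaf carbon fixation genes was 261, 266 and 397 CPM in psp1 root replicates 1, 2 and 3, against 374 to 418 CPM in WT roots. Only replicate 3 of psp1 roots reached the WT range. The sum was 33340 to 38632 CPM in psp1 aerial part, against 41098 to 41547 CPM in WT aerial part. Of these 10, 2 fell in psp1 roots and 0 rose: GAPA1 (-0.87 ± 0.08, edgeR exact test, adjusted p = 4.27e-09) and PRK (-0.70 ± 0.21, edgeR exact test, adjusted p = 0.00842), enzymes of the Calvin cycle. PRK was not called without psp1 root replicate 2 or 3 or WT root replicate 2 or 3, nor with the quasi-likelihood test, DESeq2, library totals, equal depth or limma. The median of the 10 in roots was -0.33, with 6 negative, and the background was 9.1% lower and 8.72% higher. The 7 leaf polarity and stomata genes summed to 0 to 0.716 CPM in psp1 roots and 0 to 1.53 CPM in WT roots, with YAB3 and MYB60 at 0 in every psp1 root library and FIL, YAB2, YAB3 and YAB5 at 0 in every WT root library. They summed to 53.2 to 75.0 CPM in psp1 aerial part and 62.9 to 70.3 CPM in WT aerial part.

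The 13 root markers summed to 3245 to 4397 CPM in psp1 roots, against 4860 to 5711 CPM in WT roots, with no overlap. Most of that sum was 1 gene, PYK10 (AT3G09260), a root beta-glucosidase, at 2327 ± 411 TPM in psp1 roots, against 3103 ± 262 TPM in WT roots (SD, n = 3 each). PYK10 fell by 0.63 ± 0.14 on the log2 scale (edgeR exact test, adjusted p = 0.000316). Of the 11 tested in roots 2 rose, IRT1 and BRN1, and 2 fell, PYK10 and TIP2;3. The median was 0.00 and 5 of the 11 were negative. Over all genes tested in roots, 8.72% were called higher and 9.1% lower. IRT1 (AT4G19690), the epidermal iron transporter, had 49.6, 59.4 and 55.1 TPM in psp1 roots, against 11.6, 11.8 and 12.6 TPM in WT roots (1.98 ± 0.07, edgeR exact test, adjusted p = 1.98e-24). TIP2;3 (AT5G47450), a root aquaporin of the vacuole membrane, had 52.0, 45.0 and 57.2 TPM in psp1 roots, against 93.8, 103 and 83.9 TPM in WT roots (-1.07 ± 0.15, edgeR exact test, adjusted p = 2.4e-08). In the aerial part the root markers summed to 274 to 302 CPM in psp1 and 285 to 332 CPM in WT, with 7 of 13 at 0 in psp1 (CASP1, CASP4, EXPA18, COBL9, IRT1, SMB and BRN1) and 3 of 13 at 0 in WT (EXPA7, SMB and BRN1), and CASP5 was at 0 in every psp1 root library. The part of these differences in the members' results was not tested.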

How the data were processed

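RNA of 12 Arabidopsis samples was sequenced as single-end SOLiD reads of 75 bases, per the labels' protocols. Per the labels, the authors assigned the reads to TAIR10 transcripts with kallisto 0.43.0 (fragment length 200, SD 30) and deposited, per locus, estimated counts and TPM. The counted targets have the length of the coding sequence in all 41 members. Reads shared by near copies are split by kallisto's model, and intervals cover counting error only.

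Estimated counts were rounded and tested with edgeR 4.0.16 in R 4.3.3 (exact test, classic mode, TMM, filterByExpr) at a Benjamini-Hochberg adjusted p under 0.01 over all genes tested, the mode and level the labels state. The difference between organs used the quasi-likelihood test over 12 libraries. Fold changes are on the log2 scale and SEs come from the libraries' log2 CPM after TMM scaling, with a prior count of 2. TMM-scaled CPM also served for the counts of genes whose psp1 libraries all lay below those of WT. TPM was used for levels. Alternatives were the quasi-likelihood test, DESeq2 1.42.0, a replicate block, library totals, RLE size factors, no filter, a threshold of 0.05, equal depth, limma 3.58.1 on log2(TPM + 1), summed near copies, and leaving out each library. P-values set a group difference against the spread between these libraries, and the estimate of that spread draws on all genes tested.

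The members, the lists and the rule for naming genes were chosen with earlier results of these data known. Values in every library are given for members called between genotypes, for members called in the difference between organs, for the highest and lowest member of each role group in WT aerial part, and for the ends of the WT organ range. Other lists contribute up to 2 called genes with the smallest p per genotype comparison, and CHLI2 is given beside them because its difference between organs passed. PYK10, BRN1 and CPFTSY were named after their values were seen. Sequences and coordinates are RefSeq's TAIR10.1, and all 41 members matched it.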

Additional observations from a re-analysis of the deposited data

Results flagged for a closer look

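The tests of a genotype difference that changes with the organ, (psp1 over WT in roots) minus (psp1 over WT in the aerial part), passed for 6 of the genes described here (edgeR quasi-likelihood test over all 12 libraries, adjusted p under 0.01). Of all 18759 genes tested, 162 passed with a negative value and 153 with a positive one. Among the 41 members they were LHCB3 (-0.88) and PSAO (-1.5). Among the 15 chlorophyll synthesis genes they were CHLI2 (-1.45), CHLM (-1.37) and CHLP (-1.12), and among the 4 antenna insertion genes CPSRP43 (-1.67). In each of the other lists 0 passed. CHLI2, a subunit of magnesium chelatase, had 1.55, 1.72 and 1.36 TPM in psp1 roots, against 5.19, 4.42 and 3.88 TPM in WT roots, and 65.8, 60.7 and 51.5 TPM in psp1 aerial part, against 62.6, 61.3 and 75.7 TPM in WT aerial part. PSAO and CPSRP43 differed in opposite directions in the organs. For CPSRP43 the difference passed the threshold in each organ, and for PSAO in roots. Of 18 alternatives, LHCB3 lost its call in 11, PSAO in 8 and CHLM in 1, which was leaving out WT aerial replicate 2. CHLP and CPSRP43 kept their calls in all 18, and CHLI2 was not followed through the alternatives.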

How the results depend on the processing

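All 41 members were called lower in roots than in the aerial part, in psp1 and in WT, under each of 15 alternatives. In the aerial part the 3 members called lower in psp1 became 0 with the quasi-likelihood test, 0 with that test and a replicate block, 0 with limma on log2(TPM + 1) and 8 at a threshold of 0.05, and 0 to 6 when 1 library was left out. Of all 15928 genes tested there, 144 were called lower in the main test, and 3, 2, 0 and 302 in those settings. With 1 library left out, 29 to 284 of all genes were called lower. In roots the 14 became 9 with the quasi-likelihood test, 9 with the replicate block and 6 with limma, and 10 to 15 with 1 library left out. Of all 17793 genes tested there, 1620 were called lower in the main test, and 1149, 980 and 383 in those settings. With 1 library left out, 1094 to 1712 of all genes were called lower. The 2 members of the interaction became 5 with DESeq2, 1 (PSAO) with the replicate block, 5 at a threshold of 0.05 and 0 at equal depth, and 0 to 3 with 1 library left out. Of all genes, 162 passed with a negative value in the main test, and 497, 155, 447 and 137 in those settings. With 1 library left out, 55 to 241 of all genes did. No member called between genotypes or in the interaction changed sign in that result under an alternative. The signs of members not called were not followed. Under every setting 0 members were called higher in either genotype comparison or in the interaction. Scaling by library totals moved the median of all genes to 0.12 in the root comparison and to 0.60 (psp1) and 0.54 (WT) between organs, and the members' medians to -0.49, -6.19 and -5.86; the share of calls that were higher was then 64.4% in roots, against 48.9%, and 71.5% (psp1) and 71.3% (WT) between organs, against 50.6% and 52.1%. Same-numbered libraries deviated together with r of -0.05 to 0.15 only, so the numbers were not taken as pairs. The cause of these changes was not tested. Depth was lower in every psp1 library, and at 2 counts a group LHCA6 could not be compared between genotypes in roots.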
